A study of Mus musculus with 9 samples.

Results

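The 44 genes described here encode lysosomal membrane proteins, the proteases, glycosidases and lipid-handling proteins of the lysosome lumen, and subunits of the vacuolar proton pump (V-ATPase). They were chosen by gene symbol from a written list, which was drawn up with earlier results of these data known, and all 44 were found among the 54347 genes of the count table. Their messenger RNA was followed across 3 mouse myeloid cell lines with 3 sequencing libraries each, numbered 1 to 3. Hox-WT and Hox-URE are lines of bone marrow progenitors, lineage-negative and c-Kit-positive, kept growing by a Hoxb8 protein fused to the estrogen receptor. Hox-WT has the genotype WT. Hox-URE has the genotype UREd/d, in which the URE, an enhancer upstream of *Spi1* (which encodes the myeloid transcription factor PU.1), is deleted. URE-AML (the line labelled B22, described as AML blast-like) carries the same UREd/d genotype and grew out of the leukemic blasts of a diseased mouse. All 3 lines were kept in IMDM medium containing 20% serum, the cytokines SCF, IL-6 and IL-3 at 10 ng/ml and 1 µM β-estradiol. The leukemic line thus received the estradiol too. The published methods state a different β-estradiol concentration for these lines. No age or time point is given in the labels. Each genotype and stage is a single line, so a difference between groups is a difference between lines. Whether the 3 libraries of each line were grown as separate cultures is not stated, and p-values therefore measure only the spread between these libraries, which may be technical.

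Lysosomes are the acidic compartment in which endocytosed, phagocytosed and autophagic cargo is degraded. The V-ATPase acidifies them: its V1 sector hydrolyses ATP in the cytosol and turns the V0 sector, which carries protons through the membrane. The acid activates the cathepsins, a group of proteases made as inactive precursors, as well as the glycosidases and lipid hydrolases, several of which need small activator proteins to reach their lipid substrates. Myeloid cells rely on these enzymes for antigen processing and for the activation of granule proteases, and loss of single enzymes causes lysosomal storage diseases. The transcription factors TFEB and TFE3 bind the CLEAR box, a short sequence found before many lysosomal genes.

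Marker genes matched the labels in part. *Spi1* had 96.5 to 109.9 CPM (counts scaled to a common library size, with TMM factors for composition) in Hox-WT, 0 to 0.0414 CPM in Hox-URE and 2.504 to 6.35 CPM in URE-AML. *Hoxb8* had 0 counts in all URE-AML libraries and 61.6 to 141 CPM in the other two lines. *Kit* was present in all 9 libraries at 35.5 to 192 CPM, whereas *Flt3* had 0 counts in URE-AML, *Cd34* was at 0 to 0.0404 CPM there, and *Hoxa9* was at 0 in every library. The libraries held 20331064 to 28588718 counts. Of 10 neutrophil markers, 9 were called lower in Hox-URE than Hox-WT, while URE-AML had 8 above and 1 below Hox-WT. Over all tested genes, 15.9% were called lower and 21.3% higher in Hox-URE than Hox-WT. In URE-AML 23.0% were called higher and 20.2% lower than Hox-WT. Of 10 monocyte and macrophage markers, of which 9 could be tested, 7 were called lower and 1 higher in Hox-URE than Hox-WT, with *Csf1r* and *Fcgr1* at 0 counts in all Hox-URE libraries. In bulk RNA fewer cells of a type and less RNA per cell cannot be told apart, and the part of these markers in the results on lysosomal genes was not tested.

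A gene was tested if it passed a filter on low counts, and was called if the edgeR quasi-likelihood test gave a Benjamini-Hochberg adjusted p under 0.05 over all 13082 tested genes and the fold change exceeded 1.5. Counts of genes above or below another line are counts of such calls. Of the 44 genes 42 were tested, and *Ctsh* and *Ctss* were not. In Hox-URE relative to Hox-WT, 11 of the 42 passed as higher and 3 as lower, beside 21.3% of all tested genes called higher and 15.9% lower (37.2% in either direction). Their median log2 fold change was 0.34, against 0.00 over all tested genes. In URE-AML relative to Hox-WT, 12 were called higher and 7 lower, with 23.0% of all genes higher and 20.2% lower (43.2% together) and a median of 0.05 for the lysosomal genes. In URE-AML relative to Hox-URE, 5 were called higher and 8 lower, with 20.3% of all genes higher and 22.4% lower (42.7% together) and a median of -0.11. As shares of the 42, the higher and lower calls were 26.2% and 7.14%, 28.6% and 16.7%, and 11.9% and 19.05% in the 3 comparisons. The higher calls against Hox-WT made up a larger share than among all tested genes and the other calls a smaller one. This is given as a description without a test. It depended on the fold change rule. When genes were tested against a fold change of 1.5 (glmTreat), 6 of the 42 were higher in Hox-URE than Hox-WT. Over all 13082 genes 2032 were, which is not a smaller share. The following concerns which of the genes differed. The libraries of the 2 lines did not overlap for 13 genes higher and 8 lower in Hox-URE relative to Hox-WT (30.9% and 29.4% of all tested genes), for 16 higher and 11 lower in URE-AML relative to Hox-WT (34.4% and 33.2%), and for 8 higher and 11 lower in URE-AML relative to Hox-URE (31.8% and 31.1%). A further 5, 4 and 4 genes passed the adjusted p but not the fold change threshold. Over all 13082 tested genes 2063, 1901 and 1995 did so. With called genes included, 53.0%, 57.7% and 58.0% of all genes passed the adjusted p. These 3 comparisons share lines and are not independent of each other.

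**Figure D1:**
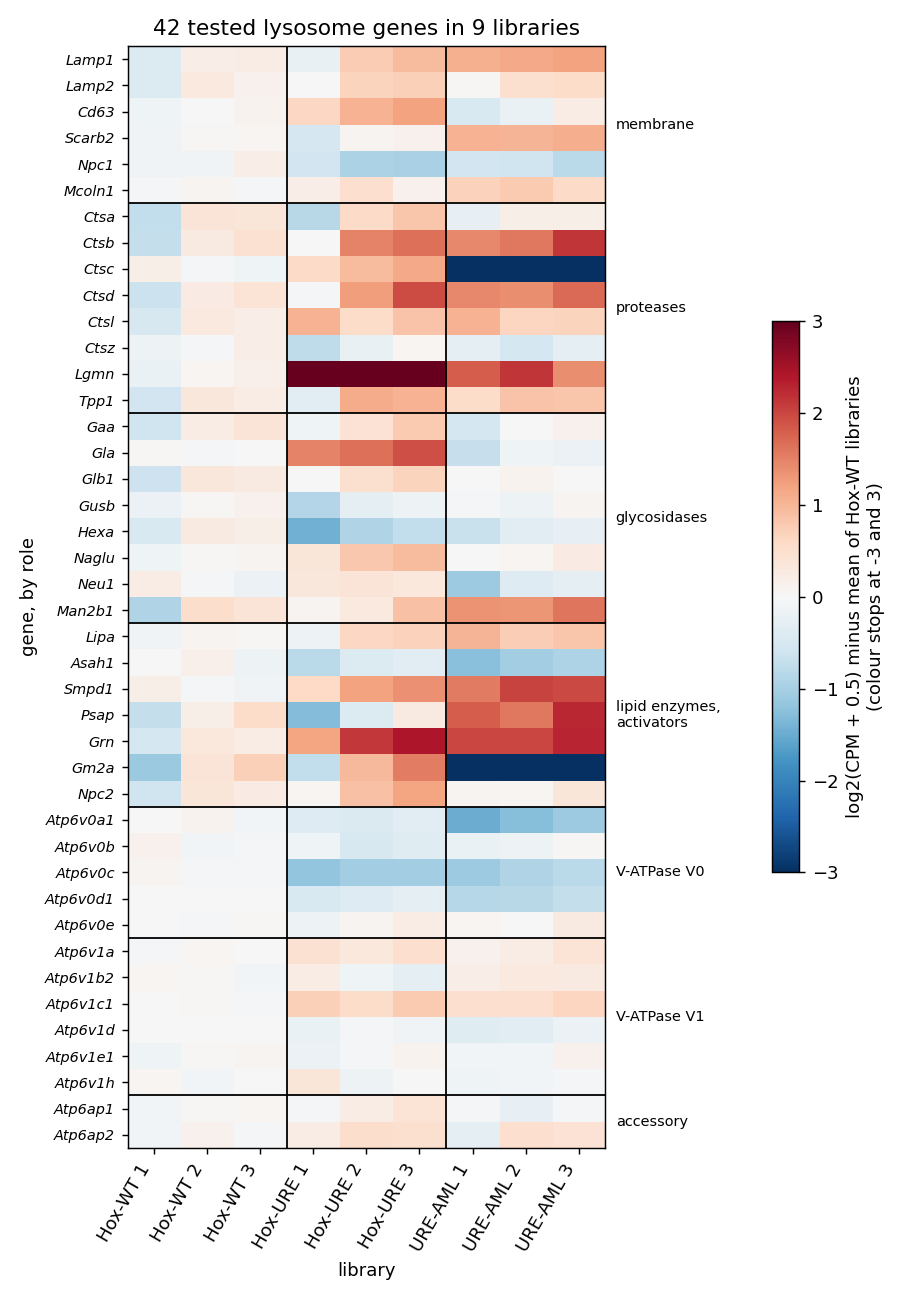
Heat map of the 42 tested lysosomal genes (rows, grouped by role) in the 9 libraries (columns), coloured by log2(CPM + 0.5) minus the mean of the 3 Hox-WT libraries, with colours that stop at -3 and 3. *Lgmn* is dark red in Hox-URE, *Ctsc* and *Gm2a* are dark blue in URE-AML, and the V-ATPase rows vary less than the rows above them.

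**Figure D2:**
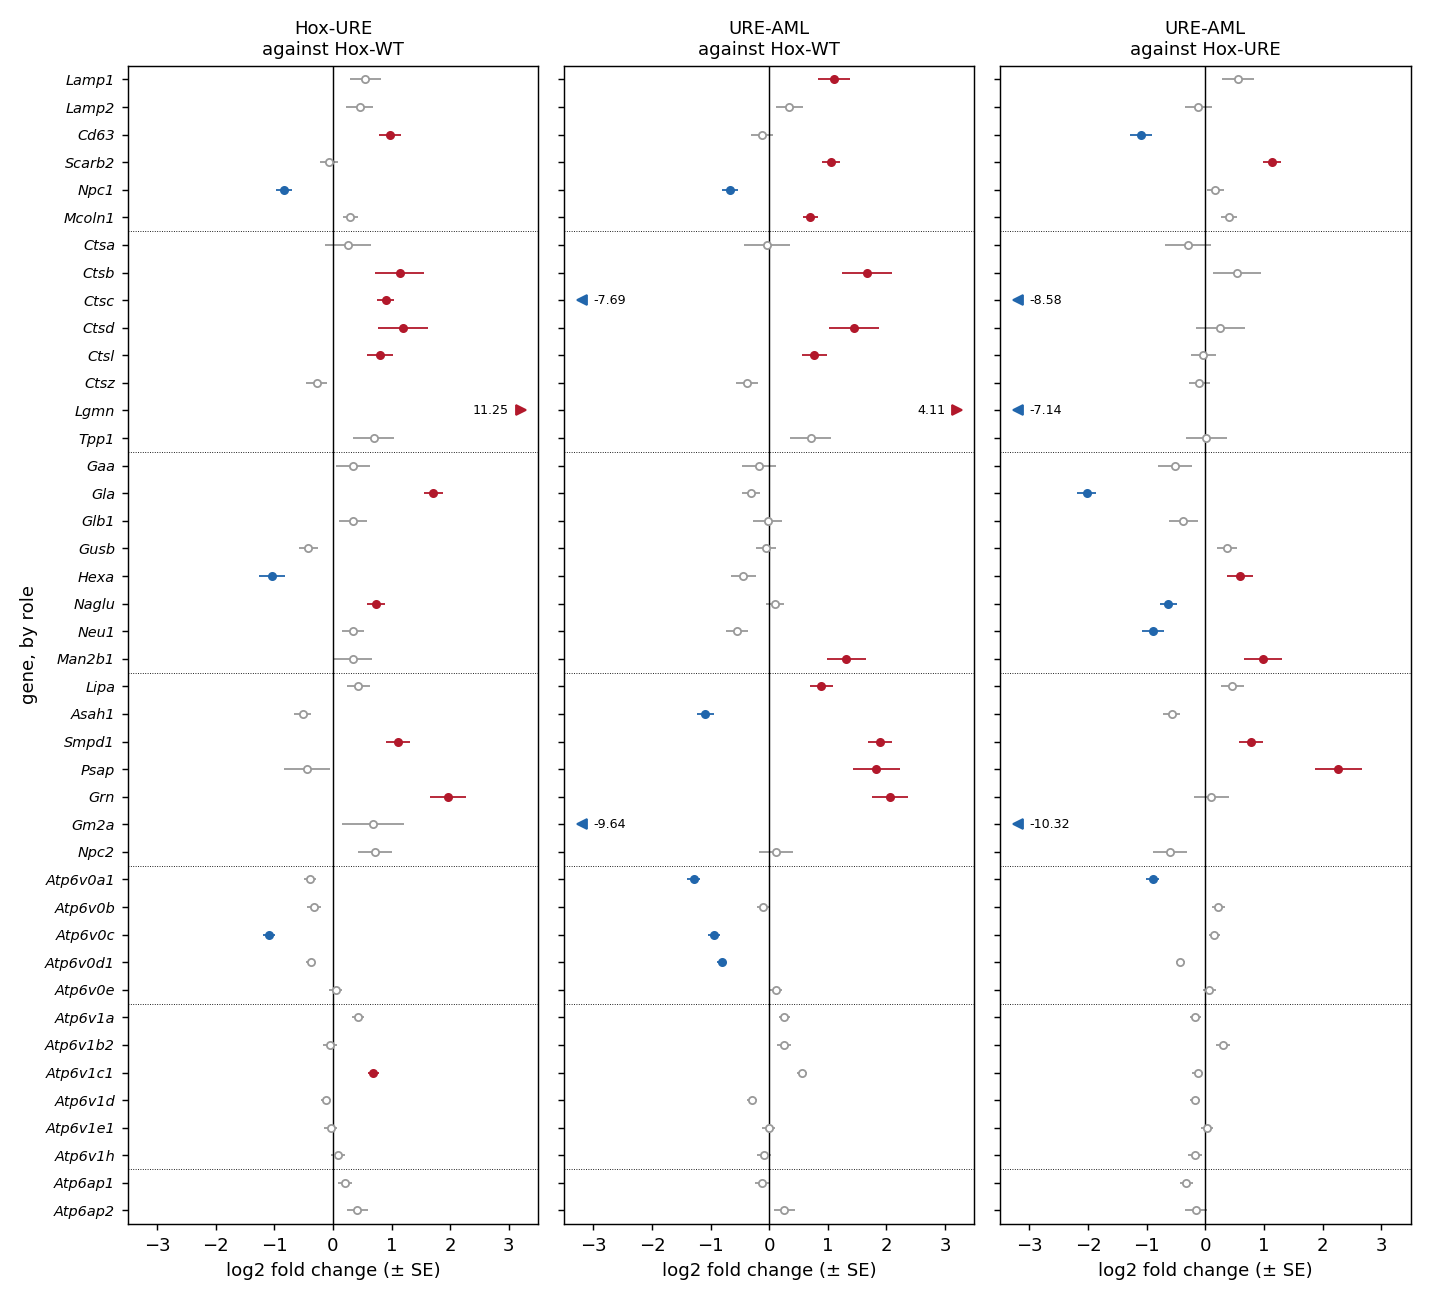
Log2 fold changes with SE of the 42 tested genes in the 3 comparisons, in the same order. Filled red and blue points were called higher and lower, open grey points were not called, and arrows mark values beyond the axis, printed beside them. The V-ATPase genes, at the bottom, lie near 0 in most cases, except for lower V0 genes.

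By role, most calls lay outside the V-ATPase. Of the 29 tested genes outside the V-ATPase, Hox-URE had 10 above and 2 below Hox-WT, and URE-AML had 12 above and 4 below Hox-WT. Of the 13 V-ATPase genes, Hox-URE had 1 above and 1 below Hox-WT, and URE-AML had 0 above and 3 below. In that last comparison *Atp6v1c1* (log2 fold change 0.56, edgeR adjusted p = 3.8e-04) and *Atp6v1a* (0.26, edgeR adjusted p = 0.039) were higher but under the fold change threshold. *Atp6v1d* was lower (-0.29, edgeR adjusted p = 0.016), also under it. *Atp6v1c1* was called higher there without URE-AML 1 or URE-AML 2. DESeq2 on all libraries also called 0 higher. Proteases were the role with the most higher calls in Hox-URE, with 5 of 8 tested. The shares over all tested genes were 21.3% above and 15.9% below Hox-WT for Hox-URE, and 23.0% and 20.2% for URE-AML.

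The libraries within a line differed for these genes. The summed CPM of the 44 genes was 5637, 8068 and 9611 in Hox-URE libraries 1 to 3, 4686, 5728 and 5875 in Hox-WT, and 5863, 6237 and 7341 in URE-AML. Hox-URE library 1 was the lowest of its line for 32 of the 42 tested genes. Over all tested genes 40.2% were lowest in it. Hox-URE 3 was the highest for 31 of the 42, beside 32.9% of all tested genes. URE-AML 1 was lowest for 24 (10 of them V-ATPase genes) and URE-AML 3 highest for 30, beside 32.9% and 32.3% of all tested genes. The genes low in Hox-URE 1 were mainly those outside the V-ATPase. Of these, 25 of 29 were lowest there, with a median log2 ratio of -0.69 to the mean of the other 2 libraries. Of the V-ATPase genes 7 of 13 were lowest there, with a median of -0.11. Hox-WT library 1 had the same arrangement. It was lowest for 24 of the 29 genes outside the V-ATPase (median -0.63) but for 4 of the 13 V-ATPase genes (median 0.01), while 35.0% of all genes were lowest in it. Summed basophil and mast cell markers (6 genes) were lowest in library 1 of both Hox lines too. They had 483, 687 and 838 CPM in Hox-WT 1 to 3, and 1613, 3525 and 5892 CPM in Hox-URE 1 to 3. In URE-AML the same sum was 31.4 to 62.7 CPM. Of that list 4 of 5 tested genes were called higher in Hox-URE than Hox-WT, beside 21.3% of all tested genes. The receptor gene *Fcer1a* had 0 counts in all 6 Hox libraries. The summed neutrophil markers were also lowest in library 1 of each Hox line, at 5764 against 9088 and 9188 CPM in Hox-WT and 2720 against 3859 and 4098 CPM in Hox-URE. The same held for stem and progenitor markers (1958, 2243 and 2223 CPM in Hox-WT, 864, 1303 and 1319 CPM in Hox-URE). It held for erythroid and megakaryocyte markers (7.16, 17.8 and 20.7 CPM, then 15.8, 30.9 and 42.5 CPM). Lymphoid markers did likewise (37.6, 47.9 and 50.5 CPM, then 34.5, 39.8 and 41.2 CPM). Monocyte and macrophage markers and stromal markers were not lowest in Hox-WT 1. The part of all these markers in the levels of the lysosomal genes was not tested.

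**Figure D3:**
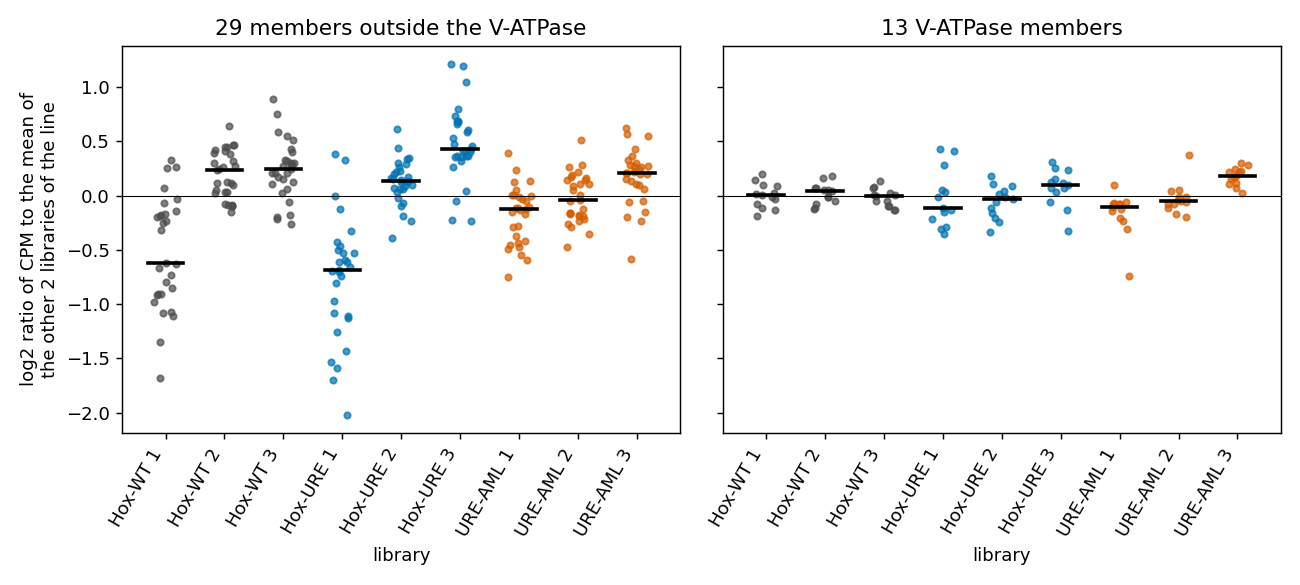
Log2 ratio of each gene's CPM in a library to the mean of the other 2 libraries of the same line, for the 29 tested genes outside the V-ATPase (left) and the 13 V-ATPase genes (right). Bars are medians, which lie at -0.63 in Hox-WT 1 and -0.69 in Hox-URE 1 on the left and near 0 on the right.

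Left out of the fit, Hox-URE 1 changed the counts. Without it, Hox-URE had 17 of the 42 genes above and 3 below Hox-WT, with a background of 22% higher and 17.0% lower. The added higher calls were *Lamp1*, *Lamp2*, *Tpp1*, *Lipa*, *Gm2a* and *Npc2*, all outside the V-ATPase. In URE-AML relative to Hox-URE, 2 instead of 5 were then called higher (background 21%) and 11 instead of 8 lower (background 22.8%). *Scarb2* and *Psap* remained as the higher calls, and *Asah1*, *Gaa* and *Npc2* were added to the lower ones. In URE-AML relative to Hox-WT, 13 were higher (background 23.4%) and 7 lower (background 20.9%). This library enters there through the filter, the scaling and the shared estimate of the spread. For Hox-URE relative to Hox-WT, the median log2 fold change of the lysosomal genes was 0.34 with all libraries. It was 0.50 without Hox-URE 1 and 0.17 without Hox-URE 3.

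The widest differences belonged to 3 genes that were nearly silent in at least 1 line. Legumain (*Lgmn*, chr12:102394084-102439813 on GRCm38) is an asparaginyl endopeptidase that also cleaves the precursors of several cathepsins. Its counts in the Hox-WT libraries were 0, 3 and 4, while it reached 121, 239 and 289.9 CPM in Hox-URE and 1.53, 2.05 and 1.03 CPM in URE-AML. The 3 lines did not overlap. In summed counts Hox-URE exceeded Hox-WT 2478-fold, with an exact 95% interval of 1202 to 6165 that covers counting error only, and exceeded URE-AML 137-fold (113 to 167). Both differences were called (edgeR adjusted p = 1.5e-07 and 2.5e-07). URE-AML lay above Hox-WT 18.1-fold (8.50 to 46.2, edgeR adjusted p = 0.001).

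*Ctsc* (chr7:88278085-88310888) encodes cathepsin C, the dipeptidyl peptidase that activates neutrophil and mast cell granule serine proteases. It had 142, 122 and 115 CPM in Hox-WT, 187, 241 and 276 CPM in Hox-URE and 0.606, 0.428 and 0.772 CPM in URE-AML. Every Hox-URE library lay above every Hox-WT library, with a log2 fold change of 0.90 ± 0.15 (SE, with adjusted p = 6.7e-04). In URE-AML the level was 207-fold below Hox-WT (153 to 287) and 378-fold below Hox-URE (280 to 525) in summed counts, with 15, 9 and 18 counts left in its libraries (edgeR adjusted p = 3.2e-09 and 3.1e-09). The summed neutrophil markers, among them granule serine protease genes, were at 11416 to 26158 CPM in URE-AML and 5764 to 9188 CPM in Hox-WT, and their part in this difference was not tested.

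*Gm2a* (chr11:55098115-55113029) encodes the GM2 activator, which presents gangliosides to β-hexosaminidase. It varied within both Hox lines, with 62.2, 178 and 222 CPM in Hox-WT and 80.6, 264 and 395 CPM in Hox-URE, and library 1 was lowest in each. The 2 lines overlapped and were not called apart (log2 fold change 0.68 ± 0.53 SE, with adjusted p = 0.31). They were called without Hox-URE 1 (1.09 ± 0.40, edgeR adjusted p = 0.042), and with the replicate number as a block (0.60, edgeR adjusted p = 0.0063). URE-AML held 5, 2 and 6 counts, or 0.202, 0.0951 and 0.257 CPM, 830-fold below Hox-WT (485 to 1560) and 1219-fold below Hox-URE (712 to 2289, edgeR adjusted p = 1.2e-05 and 8.2e-06).

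The other 2 near-silent genes were at the limit of detection in all lines. *Ctsh*, an aminopeptidase, had at most 6 counts in any library, and *Ctss*, the cathepsin that trims the class II invariant chain in antigen-presenting cells, had at most 3. *Ctss* had 0 counts in all Hox-URE and URE-AML libraries. A count of 0 allows up to 3 counts, which is 0.104 to 0.153 CPM in these libraries.

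**Figure D4:**
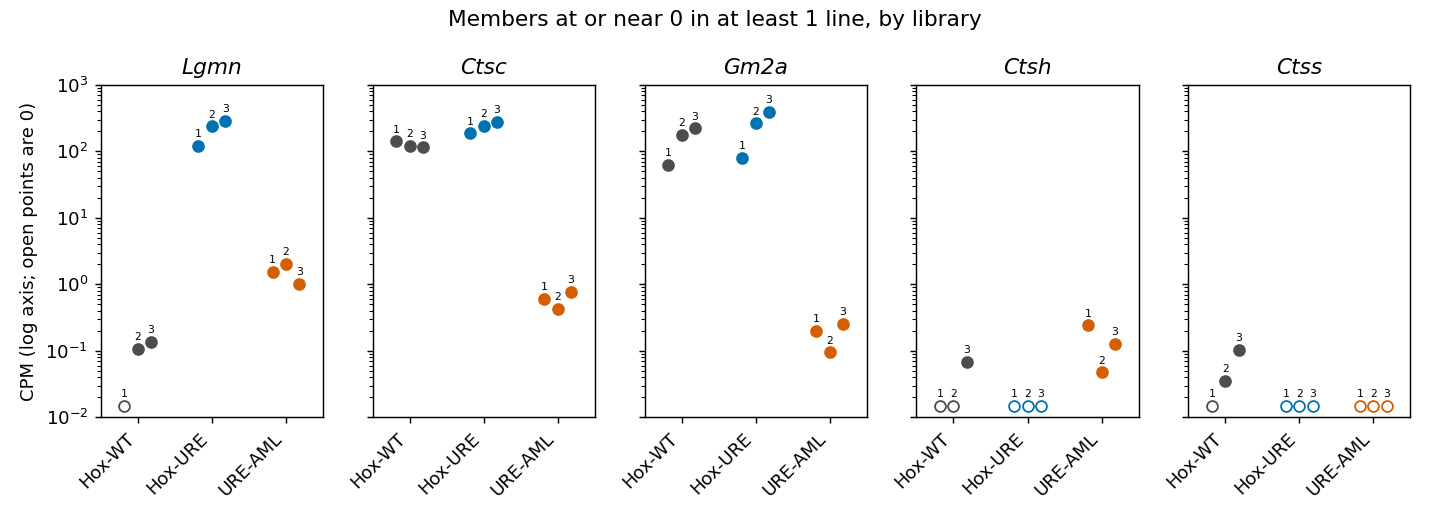
CPM on a log axis of *Lgmn*, *Ctsc*, *Gm2a*, *Ctsh* and *Ctss* in each library, numbered by library, with open points for libraries at 0. *Lgmn* is high only in Hox-URE, *Ctsc* and *Gm2a* are above 62 CPM in all 6 Hox libraries and below 1 CPM in URE-AML, and *Ctsh* and *Ctss* stay below 0.25 CPM throughout.

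The sequences before the starts of the 3 switched genes are shown because these genes differed most between the lines. They are the 250 bases upstream of a RefSeq start on GRCm38.p6, written 5′ to 3′ on the strand of the gene. Capitals mark an E-box (CACGTG, the core of the CLEAR box) in *Lgmn* and the PU.1 core (GAGGAAGT, here on the opposite strand) in *Ctsc*. The *Gm2a* stretch held neither. *Lgmn* has a further start at which neither was found.
*Lgmn* chr12:102439093-102439342, minus strand: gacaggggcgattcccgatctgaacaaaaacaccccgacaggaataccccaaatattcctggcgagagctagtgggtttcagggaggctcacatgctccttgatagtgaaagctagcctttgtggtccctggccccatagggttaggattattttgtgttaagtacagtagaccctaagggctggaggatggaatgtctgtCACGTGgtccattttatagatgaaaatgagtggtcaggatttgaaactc
*Ctsc* chr7:88277835-88278084, plus strand: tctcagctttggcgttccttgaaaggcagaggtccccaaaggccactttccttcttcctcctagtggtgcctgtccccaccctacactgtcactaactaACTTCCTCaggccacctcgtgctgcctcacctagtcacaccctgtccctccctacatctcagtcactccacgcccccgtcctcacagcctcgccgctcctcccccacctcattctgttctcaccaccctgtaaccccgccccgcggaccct
*Gm2a* chr11:55097735-55097984, plus strand: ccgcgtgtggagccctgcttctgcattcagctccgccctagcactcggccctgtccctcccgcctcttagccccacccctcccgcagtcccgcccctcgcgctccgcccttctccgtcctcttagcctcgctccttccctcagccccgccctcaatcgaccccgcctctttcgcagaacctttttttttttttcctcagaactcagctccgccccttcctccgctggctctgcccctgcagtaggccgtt

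Among the remaining proteases, *Ctsb*, *Ctsd* and *Ctsl* were called higher than Hox-WT in both lines that lack the URE. Cathepsin D (*Ctsd*), an aspartic protease, had 212, 394 and 442 CPM in Hox-WT, 319.9, 791 and 1291 CPM in Hox-URE and 908, 875 and 1079 CPM in URE-AML. The URE-AML libraries lay above all Hox-WT libraries, whereas Hox-URE 1 lay within the Hox-WT range. The log2 fold changes against Hox-WT were 1.197 ± 0.42 (SE, with adjusted p = 0.036) in Hox-URE and 1.45 ± 0.43 (SE, with adjusted p = 0.014) in URE-AML. The first of these was narrowly past the threshold. It was lost (edgeR adjusted p up to 0.168) when Hox-WT 1 or 2, Hox-URE 2 or 3, or URE-AML 1 or 2 was left out, and reached 1.57 ± 0.29 (edgeR adjusted p = 0.0012) without Hox-URE 1. The second was lost without Hox-WT 1 (edgeR adjusted p = 0.052).

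Cathepsin B (*Ctsb*), a cysteine protease, had 26.1, 52.6 and 59.4 CPM in Hox-WT, 43.1, 123 and 138 CPM in Hox-URE and 119, 129.9 and 192 CPM in URE-AML, and Hox-URE 1 again lay within the Hox-WT range. It was called higher in Hox-URE (log2 fold change 1.14 ± 0.42 SE, with adjusted p = 0.042), a call lost without the same libraries as for *Ctsd* (edgeR adjusted p up to 0.139) and stronger without Hox-URE 1 (1.496 ± 0.30, edgeR adjusted p = 0.0022). In URE-AML it was higher by 1.67 ± 0.42 (SE, with adjusted p = 0.0064) and the libraries did not overlap. *Fdft1* overlaps this gene on the opposite strand. The libraries were made with a kit that keeps the strand, and the strand setting of the counting is not given in the sources used here.

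Cathepsin L (*Ctsl*), also a cysteine protease, was expressed at a lower level, 10.9, 18.9 and 17.7 CPM in Hox-WT against 32.05, 22.8 and 28.2 CPM in Hox-URE and 32.2, 24.3 and 24.6 CPM in URE-AML. Unlike the others, it was highest in library 1 of Hox-URE. Its log2 fold changes were 0.80 ± 0.22 (SE, with adjusted p = 0.01) in Hox-URE and 0.77 ± 0.22 (SE, with adjusted p = 0.011) in URE-AML, and the latter fell to 0.56, under the fold change threshold, without Hox-WT 1. Both calls were lost without library 1 of both Hox lines (0.47 in Hox-URE, edgeR adjusted p = 0.0504, and 0.56 in URE-AML). The tripeptidyl peptidase gene *Tpp1*, with 27.9 to 52.4 CPM in Hox-WT and 32.4 to 90.8 CPM in Hox-URE, was not called with all 9 libraries (edgeR adjusted p = 0.12) and was called without Hox-URE 1 (1.03 ± 0.22, edgeR adjusted p = 0.0032), and also without the filter on low counts (0.69, edgeR adjusted p = 0.043). With the replicate number as a block *Tpp1* was called too (0.64, edgeR adjusted p = 0.028). The carboxypeptidase genes *Ctsa* and *Ctsz* were not called in any comparison with all 9 libraries, and their levels overlapped between Hox-WT and Hox-URE.

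Among the 8 glycosidases, Hox-URE had 2 above and 1 below Hox-WT. These shares, 25% and 12.5%, lie near the 21.3% and 15.9% of all tested genes. α-galactosidase A (*Gla*, chrX:134588149-134601125), which removes terminal galactose from glycolipids, was the clearest, with 99.6, 92.4 and 97.8 CPM in Hox-WT, 271, 307 and 372 CPM in Hox-URE and 59.6, 88.5 and 85.8 CPM in URE-AML. All Hox-URE libraries lay above those of both other lines. The log2 fold change was 1.71 ± 0.16 (SE, with adjusted p = 1.4e-05) for Hox-URE relative to Hox-WT and -2.02 ± 0.16 (SE, with adjusted p = 3.2e-06) for URE-AML relative to Hox-URE. *Naglu*, which degrades heparan sulfate, was likewise highest in Hox-URE, with 35.9, 40.2 and 41.5 CPM in Hox-WT, 50.1, 68.8 and 76.4 CPM in Hox-URE and 38.9, 41.1 and 46.3 CPM in URE-AML. Its log2 fold change was 0.73 ± 0.15 (SE, with adjusted p = 0.0023) in Hox-URE relative to Hox-WT. In URE-AML relative to Hox-URE it was -0.63 ± 0.15 (SE, with adjusted p = 0.0048), which no longer passed the fold change threshold without Hox-URE 3 (-0.50) or URE-AML 1 (-0.57).

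*Hexa*, the α subunit of β-hexosaminidase and partner of the GM2 activator, went the other way. It had 98.3, 163 and 151 CPM in Hox-WT, 49.5, 71.4 and 80.5 CPM in Hox-URE and 84.4, 107 and 113 CPM in URE-AML, and the Hox-URE libraries lay below all others. The log2 fold change of Hox-URE relative to Hox-WT was -1.03 ± 0.22 (SE, with adjusted p = 0.0028). That of URE-AML relative to Hox-URE was 0.59 ± 0.22 (SE, with adjusted p = 0.039), and this call was lost without Hox-WT 3, Hox-URE 1 or 2, or URE-AML 2 or 3 (edgeR adjusted p up to 0.116). Lysosomal α-mannosidase (*Man2b1*) was highest in URE-AML, at 140.1, 137 and 166 CPM against 28.9, 78.1 and 70.7 CPM in Hox-WT and 57.8, 67.2 and 100.4 CPM in Hox-URE. It was called against Hox-WT (log2 fold change 1.32 ± 0.33 SE, with adjusted p = 0.0056) and against Hox-URE (0.98 ± 0.32 SE, with adjusted p = 0.024), the latter lost without Hox-URE 1 or 2 or URE-AML 3 (edgeR adjusted p up to 0.078).

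The sialidase gene *Neu1* was called lower in URE-AML than Hox-URE, at 29.2, 47.2 and 51.7 CPM against 79.1, 81.4 and 77.3 CPM (log2 fold change -0.89 ± 0.19 SE, with adjusted p = 0.0023). *Gaa*, *Glb1* and *Gusb*, which degrade glycogen, galactosides and glucuronides, were not called in any comparison with all 9 libraries. Their ranges over the 9 libraries were 56.5 to 148 CPM, 20.98 to 52.0 CPM and 146 to 297 CPM. *Glb1* shares exons on the same strand with *Tmppe*, so its counts may hold reads of both.

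Of the 7 lipid enzymes and activators, 2 were called in Hox-URE relative to Hox-WT, both higher (28.6%, beside 21.3% of all tested genes). Against Hox-WT, URE-AML had 4 called higher and 2, *Gm2a* and *Asah1*, lower (57.1% and 28.6%, beside 23.0% and 20.2% of all genes). Progranulin (*Grn*, chr11:102430315-102437048), whose cleavage products act in lysosomes, had 57.4, 103 and 97 CPM in Hox-WT, 188, 366 and 448 CPM in Hox-URE and 336, 333 and 406 CPM in URE-AML. Both lines with the deletion lay wholly above Hox-WT, by log2 fold changes of 1.96 ± 0.31 (SE, with adjusted p = 4.3e-04) and 2.06 ± 0.31 (SE, with adjusted p = 2.4e-04), and did not separate from each other. Acid sphingomyelinase (*Smpd1*) was higher in each line in turn, with 22.8, 19.4 and 18.5 CPM in Hox-WT, 30.7, 46.96 and 53.3 CPM in Hox-URE and 60.02, 84.2 and 80.4 CPM in URE-AML and no overlap between lines. Its log2 fold changes against Hox-WT were 1.11 ± 0.20 (SE, with adjusted p = 0.0012) and 1.89 ± 0.21 (SE, with adjusted p = 2.8e-05). The step from Hox-URE to URE-AML (0.78 ± 0.20 SE, with adjusted p = 0.0071) fell to 0.58, just under the fold change threshold, without Hox-URE 1.

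Prosaposin (*Psap*, chr10:60277627-60302597) is cut into the saposins, which activate sphingolipid hydrolases. Unlike *Grn*, it was high in URE-AML alone, at 341, 291 and 469 CPM against 59.2, 109 and 142 CPM in Hox-WT and 39.4, 72.9 and 116 CPM in Hox-URE. Its log2 fold change in URE-AML was 1.83 ± 0.40 (SE, with adjusted p = 0.0027) against Hox-WT and 2.27 ± 0.41 (SE, with adjusted p = 7.9e-04) against Hox-URE, while the 2 Hox lines overlapped. Acid lipase (*Lipa*) reached 43.2, 35.4 and 37.7 CPM in URE-AML against 19.2, 22.04 and 21.5 CPM in Hox-WT (log2 fold change 0.89 ± 0.20 SE, with adjusted p = 0.0031). Acid ceramidase (*Asah1*) fell instead: 79.6, 90.1 and 73.1 CPM in Hox-WT, 46, 60.1 and 63.9 CPM in Hox-URE and 33.3, 39.1 and 42.01 CPM in URE-AML, with no overlap between lines. It was called in URE-AML relative to Hox-WT (log2 fold change -1.09 ± 0.15 SE, with adjusted p = 1.1e-04), and its step of -0.52 ± 0.14 (SE, with adjusted p = 0.012) in Hox-URE did not pass the fold change threshold. The cholesterol carrier gene *Npc2* had 70.7 to 138 CPM in Hox-WT and 112 to 245 CPM in Hox-URE, and was not called with all 9 libraries (edgeR adjusted p = 0.062). It was called without Hox-URE 1 (0.97 ± 0.24, edgeR adjusted p = 0.0066). With all libraries it was called by DESeq2 (0.73, adjusted p = 0.025) and without the filter on low counts (0.72, edgeR adjusted p = 0.014). A block on the replicate number gave the call as well (0.71, edgeR adjusted p = 0.012).

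The membrane proteins split between the lines. *Cd63* (chr10:128900989-128912822), a tetraspanin of late endosomes and of basophil and mast cell granules, had 874, 970.0 and 1037 CPM in Hox-WT, 1476, 1968 and 2218 CPM in Hox-URE and 693, 832 and 1117 CPM in URE-AML. Hox-URE exceeded both other lines in every library, by a log2 fold change of 0.97 ± 0.19 (SE, with adjusted p = 0.0018) against Hox-WT. URE-AML relative to Hox-URE gave -1.100 ± 0.19 (SE, with adjusted p = 7.0e-04). Highest in URE-AML instead was *Scarb2*, the receptor that carries β-glucocerebrosidase to lysosomes, with 38.4, 41.8 and 43.1 CPM in Hox-WT, 28.8, 43.5 and 45.2 CPM in Hox-URE and 85.1, 83.9 and 87.9 CPM in URE-AML. Its log2 fold change in URE-AML was 1.06 ± 0.15 (SE, with adjusted p = 1.8e-04) against Hox-WT and 1.13 ± 0.15 (SE, with adjusted p = 1.2e-04) against Hox-URE.

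*Lamp1*, the abundant glycoprotein that coats the inner face of the lysosomal membrane, had 208, 320.0 and 322 CPM in Hox-WT, 238, 475 and 534 CPM in Hox-URE and 579.5, 613 and 640.4 CPM in URE-AML. It was called in URE-AML relative to Hox-WT (log2 fold change 1.11 ± 0.27 SE, with adjusted p = 0.0051), and in Hox-URE only without Hox-URE 1 (0.82 ± 0.17, edgeR adjusted p = 0.0024). *Lamp2*, at 127 to 278 CPM over the 9 libraries, was not called with all libraries. The lysosomal calcium channel gene *Mcoln1* was called in URE-AML (20.5, 21.9 and 19.1 CPM against 12.2, 13.3 and 12.2 CPM in Hox-WT, log2 fold change 0.70 ± 0.13 SE, with adjusted p = 9.9e-04). *Npc1*, which moves cholesterol out of lysosomes, was lower in both lines with the deletion, with 47.9, 48.4 and 59.98 CPM in Hox-WT, 34.7, 26.7 and 26.2 CPM in Hox-URE and 34.9, 34.3 and 29.4 CPM in URE-AML. Its log2 fold changes were -0.83 ± 0.14 (SE, with adjusted p = 7.6e-04) in Hox-URE and -0.67 ± 0.14 (SE, with adjusted p = 0.0024) in URE-AML, and the latter was -0.56 and no longer called without Hox-WT 3. *Grtp1* and *Rmc1* overlap *Lamp1* and *Npc1* on the opposite strand, as *Nelfcd* does *Ctsz*.

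Few of the 13 V-ATPase genes were called, and the lower calls among them were in the V0 sector. Pump genes outside the 13 did not keep to this: the V1 gene *Atp6v1f* was called lower in URE-AML and the V0 gene *Atp6v0a2* higher, each relative to Hox-WT. The summed CPM of the 13 genes was 1729 to 1782 in the Hox-WT libraries, 1532 to 1624 in those of Hox-URE and 1362 to 1598 in those of URE-AML. *Atp6v0c* (chr17:24163866-24169702), the proteolipid that forms the proton-carrying ring, had 475, 436 and 427 CPM in Hox-WT, 195, 218 and 216 CPM in Hox-URE and 209, 238 and 253 CPM in URE-AML. Both lines with the deletion lay below Hox-WT without overlap, with log2 fold changes of -1.09 ± 0.10 (SE, with adjusted p = 1.0e-05) and -0.94 ± 0.10 (SE, with adjusted p = 2.0e-05). This gene is uncertain, because a processed pseudogene, *Atp6v0c-ps2*, is 99.8% identical to its transcript over 465 bases. That pseudogene held 2, 2 and 0 counts in Hox-WT, 453, 436 and 371 counts in Hox-URE and 985, 915 and 1227 counts in URE-AML. With its counts added to those of *Atp6v0c*, the sum was 475, 436 and 427 CPM, 211, 236 and 235 CPM and 248, 281 and 306 CPM in the 3 lines, and the log2 fold changes were -0.97 (edgeR adjusted p = 2.65e-05) and -0.68 (edgeR adjusted p = 2.1e-04), still called. Apart from it, no annotated pseudogene of at least 95% identity over 300 bases or more held above 9 counts in a library.

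*Atp6v0d1*, the d subunit that joins the ring to the stalk, was lower in each line in turn, with 141, 139 and 139 CPM in Hox-WT, 102, 107 and 114 CPM in Hox-URE and 77.02, 78.2 and 84.2 CPM in URE-AML. The step in URE-AML was called (log2 fold change -0.81 ± 0.08 SE, with adjusted p = 1.0e-05), and that in Hox-URE was below the fold change threshold (-0.38 ± 0.08 SE, with adjusted p = 0.0022). *Atp6v0b*, a further ring subunit, and *Atp6v0e* had 84.9 to 131 CPM and 79.1 to 107 CPM over the 9 libraries and were not called. In the V1 sector 1 of 6 genes was called: *Atp6v1c1*, at 58.8, 61.1 and 57.8 CPM in Hox-WT, 97.7, 86.7 and 102 CPM in Hox-URE and 84.3, 84.3 and 93.6 CPM in URE-AML, had a log2 fold change of 0.69 ± 0.09 (SE, with adjusted p = 1.3e-04) in Hox-URE. It lies on chromosome 15, where the median log2 fold change of all tested genes was 0.33 in that comparison. With scaling by library size alone its value was 0.58, under the fold change threshold. In URE-AML relative to Hox-WT the log2 fold change of *Atp6v1c1* was 0.56 (edgeR adjusted p = 3.8e-04), also under the threshold. Without URE-AML 1 or URE-AML 2 it was 0.587 and called (edgeR adjusted p = 0.0012 and 0.0014). *Atp6v1a*, the catalytic A subunit, had 144, 154 and 149 CPM in Hox-WT and 204, 187 and 212 CPM in Hox-URE, which did not overlap, but the log2 fold change of 0.43 ± 0.10 (SE, with adjusted p = 0.0037) was below the threshold.

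The other V1 genes, *Atp6v1b2*, *Atp6v1d*, *Atp6v1e1* and *Atp6v1h*, and the accessory genes *Atp6ap1* and *Atp6ap2* were not called in any comparison. On a scale corrected for transcript length (counts divided by transcript length and scaled to a fixed total per library), the 5 V0 genes summed to 1157 to 1310 for Hox-WT, 685 to 707 for Hox-URE and 744 to 848 for URE-AML. The 6 V1 genes summed to 634 to 655, 632 to 714 and 679 to 754. The ratio of V0 to V1 was 1.82 to 2.07 for Hox-WT, against 0.960 to 1.09 for Hox-URE and 1.10 to 1.13 for URE-AML, and the Hox-WT libraries did not overlap the others. *Atp6v0c* made up most of the V0 sum in Hox-WT, at 680 to 787, so this ratio carries the same uncertainty.

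The a subunit of V0, which directs the pump to different membranes, is encoded by 4 genes, of which *Atp6v0a1* belongs to the 44. *Atp6v0a1* had 137, 149.5 and 131 CPM in Hox-WT, 105, 103 and 109.8 CPM in Hox-URE and 48.9, 56.7 and 65.2 CPM in URE-AML, with no overlap between lines. It was called lower in URE-AML relative to Hox-WT (log2 fold change -1.29 ± 0.11 SE, with adjusted p = 4.1e-06) and against Hox-URE (-0.90 ± 0.11 SE, with adjusted p = 5.9e-05). *Tcirg1* (a3, known from osteoclasts and macrophages) was lower in Hox-URE at 28.6 to 43.2 CPM, against 51.2 to 68.5 CPM in Hox-WT and 66.8 to 89.2 CPM in URE-AML, with log2 fold changes of -0.77 ± 0.17 (SE, with adjusted p = 0.0036) in Hox-URE relative to Hox-WT and 1.14 ± 0.17 (SE, with adjusted p = 2.6e-04) in URE-AML relative to Hox-URE. *Atp6v0a2* was called higher in URE-AML than Hox-WT (0.76 ± 0.11 SE, with adjusted p = 2.2e-04), and *Atp6v0a4* had 0 counts throughout. Corrected for length, *Atp6v0a1* made up 48.3 to 54.0% of the a subunit signal in Hox-WT, 46.9 to 54.8% of it in Hox-URE and 22.5 to 25.1% of it in URE-AML. *Tcirg1* made up 29.2 to 34.0%, 20.1 to 27.1% and 43.3 to 49.9% in the same order.

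**Figure D5:**
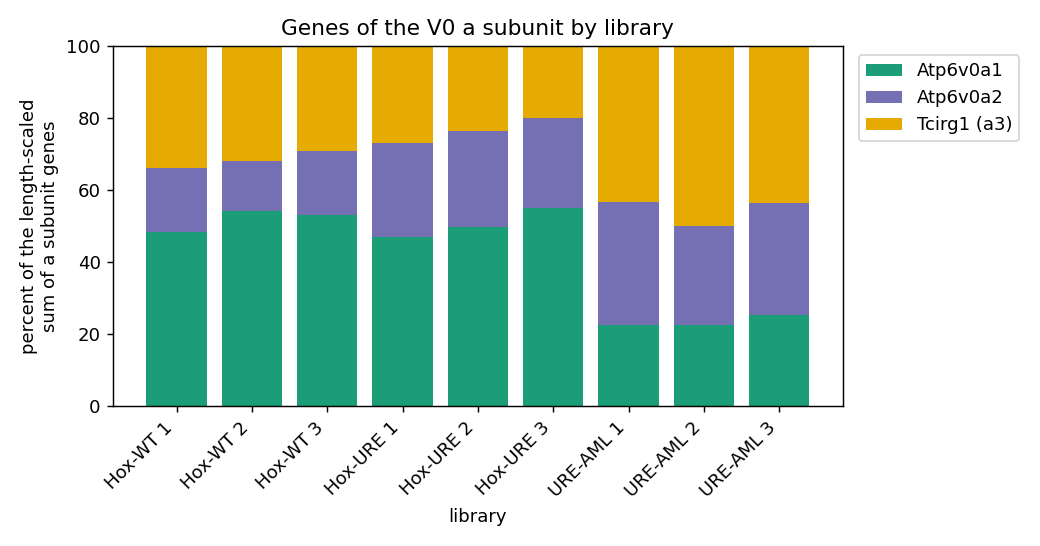
Stacked bars of the share (percent) of *Atp6v0a1*, *Atp6v0a2* and *Tcirg1* in the length-scaled sum of the a subunit genes, 1 bar per library. *Atp6v0a1* takes 22.5 to 25.1% in the URE-AML bars and 46.9 to 54.8% in the 6 bars of the Hox lines.

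Levels of different genes can be ordered only on the length-corrected scale. *Cd63* had the highest level of the 44 in every line, with means of 1181 for Hox-WT, 2096 for Hox-URE and 1078 for URE-AML. *Atp6v0c* came next in Hox-WT with a mean of 727 (680 to 787), and *Ctsd* was second in Hox-URE with 459 (191 to 733) and in URE-AML with 608 (567 to 671). *Grn* followed in both, with 374 (218 to 495) for Hox-URE and 445 (420 to 491) for URE-AML. In Hox-URE the ranges of *Ctsd*, *Grn* and *Atp6v0c* (mean 308, 295 to 318) overlapped, so their order is not resolved there, whereas in URE-AML the ranges of *Ctsd* and *Grn* did not overlap.

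CLEAR boxes were looked for in the promoters because they are the element known to be shared by lysosomal genes. RefSeq promoter windows (250 bases before to 50 bases after a start, GRCm38.p6) were found for 37 of the 44 genes, and not for *Npc1*, *Ctsb*, *Ctsh*, *Asah1*, *Atp6v1b2*, *Atp6v1c1* and *Atp6v1h*. The palindrome TCACGTGA was present in 7 of the 37 genes, and in 1.12% of all 27025 genes with a window. Its core, the E-box CACGTG, which lies within every TCACGTGA, was present in 14 of the 37, and in 8.09% of all genes. The PU.1 core GAGGAAGT, searched on both strands, was present in 4 (*Ctsc*, *Ctss*, *Gla* and *Gusb*), and in 3.69% of all genes. A match is a description of these letters and does not show that a factor binds. The stretches around each TCACGTGA follow, with the box in capitals and 12 bases on either side, 5′ to 3′ on the strand of the gene.
*Mcoln1* chr8:3500461-3500492, plus strand: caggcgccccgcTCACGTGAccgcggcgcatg
*Ctsa* chr2:164833748-164833796, plus strand: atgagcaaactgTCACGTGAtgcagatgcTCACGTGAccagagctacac
*Ctsd* chr7:142387907-142387938, minus strand: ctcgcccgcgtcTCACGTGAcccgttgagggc
*Gla* chrX:134601214-134601245, minus strand: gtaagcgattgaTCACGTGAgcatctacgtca
*Gla* chrX:134601181-134601212, minus strand: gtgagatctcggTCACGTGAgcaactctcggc
*Atp6v0d1* chr8:105566049-105566080, minus strand: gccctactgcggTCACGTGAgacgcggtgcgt
*Atp6v0e* chr17:26676386-26676417, plus strand: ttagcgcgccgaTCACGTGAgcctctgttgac
*Atp6v1a* chr16:44139372-44139403, minus strand: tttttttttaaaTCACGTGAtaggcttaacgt
The 7 genes with the box did not share a direction. In URE-AML relative to Hox-WT, *Ctsd* and *Mcoln1* were called higher, *Atp6v0d1* was called lower, and *Ctsa*, *Gla*, *Atp6v0e* and *Atp6v1a* were not called. *Gla* has the box at 2 places, 228 and 195 bases before its start, together with a PU.1 core, and was the only one of the 7 called in Hox-URE relative to Hox-WT besides *Ctsd*.

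The factors that bind this box were measured as well. *Tfeb* had 5.40 to 7.09 CPM in Hox-WT, 10.9 to 14.5 CPM in Hox-URE and 22.4 to 23.7 CPM in URE-AML, without overlap, and was called in all 3 comparisons. Its log2 fold changes against Hox-WT were 0.93 ± 0.15 (SE, with adjusted p = 6.1e-04) in Hox-URE and 1.82 ± 0.15 (SE, with adjusted p = 4.2e-06) in URE-AML. *Tfe3*, at 17.9 to 32.7 CPM, was not called in any. *Tfec*, a family member expressed in macrophages, was at 13.1 to 18.96 CPM in Hox-WT, at or under 1 count in each Hox-URE library, and at 55.5 to 57.5 CPM in URE-AML. It had 1 count in all over the Hox-URE libraries, and that line was called lower than both others. Of the 8 regulator genes listed, Hox-URE had 2 above and 1 below Hox-WT, and URE-AML had 3 above and 1 below. These shares, 37.5% and 50% called, lie near the 37.2% and 43.2% of all tested genes. URE-AML had 3 above and 1 below Hox-URE, beside 42.7% called over all genes.

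Genes of the lysosome outside the 44, from another written list of 53 with 44 tested, gave 12 higher and 5 lower calls in Hox-URE relative to Hox-WT and 14 higher and 8 lower calls in URE-AML relative to Hox-WT. URE-AML relative to Hox-URE gave 8 higher and 14 lower calls. As shares of the 44 tested, the higher and lower calls were 27.3% and 11.4%, 31.8% and 18.2%, and 18.2% and 31.8%, beside 21.3% and 15.9%, 23.0% and 20.2%, and 20.3% and 22.4% of all tested genes. Their median log2 fold changes were 0.38, 0.18 and -0.25 in the 3 comparisons. Without Hox-URE 1 the higher and lower calls were 15 and 5, 14 and 9, and 7 and 15, beside 22% and 17.0%, 23.4% and 20.9%, and 21% and 22.8% of all genes. Of the V-ATPase genes of that list 8 were tested. In Hox-URE relative to Hox-WT 1 was called, *Tcirg1* (lower), and in URE-AML relative to Hox-WT 2 were called, *Atp6v0a2* (higher) and *Atp6v1f* (lower). *Atp6v1f*, the F subunit in the central stalk of V1, had 67.7, 74.8 and 75.3 CPM in Hox-WT, 67.3, 81.5 and 88.8 CPM in Hox-URE and 41.6, 42.7 and 51.9 CPM in URE-AML. The URE-AML libraries lay below all others, with log2 fold changes of -0.68 ± 0.13 (SE, with adjusted p = 0.001) against Hox-WT and -0.80 ± 0.13 (SE, with adjusted p = 3.6e-04) against Hox-URE. Both calls were lost under glmTreat, which tests against a fold change of 1.5 (adjusted p = 0.23 and 0.052).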

How the data were processed

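RNA sequencing libraries of 3 mouse cell lines (3 per line) were analysed from 1 deposited table of 54347 genes. Its values are estimated counts that the authors obtained with Salmon on a GRCm38 transcriptome and summed per gene, and they were deposited as whole numbers without normalisation. The annotation release, and whether the counts were length-scaled, are not given in the sources used here. All 9 columns were assigned to samples by name, and 0 value columns were left unused.

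Counts were filtered (filterByExpr, minimum count 10), scaled by TMM (factors 0.938 to 1.04) and fitted with the edgeR quasi-likelihood test (edgeR 4.0.16, limma 3.58.1, R 4.3.3) on all 9 libraries with line as the only factor and a common biological coefficient of variation of 0.173. Libraries held 20331064 to 28588718 counts, of which 0.0499% lay outside tested genes. A gene was called at a Benjamini-Hochberg adjusted p under 0.05 over all 13082 tested genes and a fold change over 1.5. SE was taken from the F statistic, as the size of the log2 fold change over the root of F. Levels are CPM with TMM, and length-corrected levels divide by the median transcript length of GENCODE M21 (GRCm38), which covered 53717 genes. Ratios of genes with few counts used summed counts with exact binomial 95% intervals, and a count of 0 was bounded by 3 counts. Both cover counting error only. Library ratios used a pseudocount of 0.5 CPM. Pseudogene copies were found with blastn 2.17.0, and figures were drawn with matplotlib 3.10.9.

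All 44 genes were named by rule, with other genes named from written lists where they were called or checked a line. *Tfe3*, *Csf1r*, *Fcgr1*, *Fcer1a*, *Atp6v0a4* and *Atp6v0c-ps2* were named after their values were seen. The genes and lists were chosen with earlier results of these data known, so no count is independent evidence of a direction. Alternatives were DESeq2 1.42.0, other scalings and filters, other fold change rules, a replicate block, fits on 6 libraries and leaving out each library. Leaving out library 1 of both Hox lines and adding the pseudogene counts were chosen after seeing the data. The values of 1 listed gene are not reported here. The test was checked on simulated counts.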

Additional observations from a re-analysis of the deposited data

How the results depend on the processing

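The 3 comparisons of the 42 tested genes give 126 differences, of which 46 were called. Over 21 alternatives, 30 of these calls held in every alternative that tested the gene and 16 were lost in at least 1, and 0 of the called differences changed direction. Of the rest, 27 were called in at least 1 alternative and 53 in none, and 22 of the latter changed direction in at least 1. *Ctsa* in URE-AML relative to Hox-URE was -0.66 to 0.016 on the log2 scale with 1 library left out. The lowest came without Hox-URE 1 and the highest without Hox-URE 3. Under glmTreat the calls of *Npc1*, *Ctsb*, *Ctsd*, *Ctsl*, *Naglu* and *Atp6v1c1* in Hox-URE relative to Hox-WT were lost. In URE-AML relative to Hox-WT it lost those of *Npc1*, *Mcoln1*, *Ctsd*, *Ctsl* and *Lipa*. In URE-AML relative to Hox-URE it lost those of *Hexa*, *Naglu*, *Neu1*, *Man2b1* and *Smpd1*. For Hox-URE relative to Hox-WT, glmTreat with a fold change of 1.5 as its null left 6 genes higher. Over all 13082 tested genes it left 2032 higher. Leaving out 1 library gave 9 to 17 higher (17 without Hox-URE 1), beside 2626 of 13372 to 2949 of 13411 over all genes. Dropping the fold change threshold gave 7 lower, beside 3294 of 13082. For URE-AML relative to Hox-URE, glmTreat left 2 higher, beside 1963 of 13082 over all genes. Leaving out 1 library gave 2 to 7 (2 without Hox-URE 1, 3 without Hox-URE 2 or URE-AML 3). Over all genes these fits gave 2650 of 13445 to 2818 of 13411 higher. Leaving out library 1 of both Hox lines gave 3, beside 2830 of 13312. Asking for 10 counts in every library left 39 genes tested and 5 lower in that comparison, since it removes the near-silent genes. Over all genes 1885 of 10022 were lower in that fit. Among the other lysosomal genes, glmTreat left 1 below Hox-WT in Hox-URE, and for URE-AML relative to Hox-URE 4 above and 8 below. Over all 13082 tested genes it left 1335 lower in the former comparison, and 1963 higher and 2216 lower in the latter.

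The library numbers were not taken to pair samples. Of 9 same-numbered pairs between lines, 2 had deviations correlated above 0.1 (0.0100 to 0.271), although in 17 of 18 choices a library correlated best with its own number, a hint from the data and not the design. With the replicate number as a block, Hox-URE had 14 genes above and 3 below Hox-WT, beside 2802 and 2106 of all 13082 tested genes. The added calls were *Tpp1* (0.64, edgeR adjusted p = 0.028), *Gm2a* (0.60, edgeR adjusted p = 0.0063) and *Npc2* (0.71, edgeR adjusted p = 0.012). In URE-AML relative to Hox-WT 13 were above and 7 below, beside 3029 and 2650 of all genes. In URE-AML relative to Hox-URE the block gave 7 and 8, beside 2680 and 2904. The cause of these shifts was not tested. At these depths, genes with fewer than about 3 counts per library cannot be ordered.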

Other observations

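Genes of lysosomal biology outside the 44 included some of the widest differences, and are given as values. *Laptm4b*, a lysosomal membrane protein gene on chromosome 15, had 0 counts in all Hox-WT libraries, 182, 304 and 345 CPM in Hox-URE and 0.121, 0.143 and 0.129 CPM in URE-AML. It was at least 2571-fold higher in Hox-URE than Hox-WT, from a floor of 3 counts per library. *Galns*, *Sgsh* and *Ids*, which degrade sulfated glycosaminoglycans, were called higher than Hox-WT in both lines with the deletion, and other enzymes of this kind are not described here. *Galns* had 32.9, 40.7 and 47.3 CPM in Hox-WT, 68.98, 95.4 and 101 CPM in Hox-URE and 241, 277 and 341 CPM in URE-AML, with log2 fold changes against Hox-WT of 1.13 ± 0.19 (SE, with adjusted p = 5.7e-04) and 2.83 ± 0.19 (SE, with adjusted p = 8.8e-07). *Sgsh* had 0.600 to 1.87 CPM in Hox-WT and 17.8 to 34.8 CPM in Hox-URE (log2 fold change 4.73 ± 0.43 SE, with adjusted p = 9.8e-06). The counts of *Ids* were low, with 0.138 to 0.262 CPM in Hox-WT, 2.77 to 4.19 CPM in Hox-URE and 4.98 to 7.99 CPM in URE-AML. Lower in URE-AML than Hox-WT were the β-mannosidase gene *Manba* (109, 111 and 109 CPM in Hox-WT, 34.9, 41.6 and 49.4 CPM in URE-AML, log2 fold change -1.38 ± 0.16 SE, with adjusted p = 3.2e-05) and the acid DNase gene *Dnase2a* (69.4, 73.3 and 85.4 CPM and 4.64, 5.14 and 10.3 CPM, -3.501 ± 0.39 SE, with adjusted p = 2.8e-05).

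Of 9 genes that sort enzymes to lysosomes, 3 were called in Hox-URE and 3 in URE-AML relative to Hox-WT, beside 37.2% and 43.2% of all tested genes. Between URE-AML and Hox-URE 6 were called, in URE-AML 4 higher (44.4%, beside 20.3% of all genes) and 2 lower (22.2%, beside 22.4%). Sortilin (*Sort1*), which carries prosaposin and other cargo, had 127, 142 and 126 CPM in Hox-WT, 6.15, 10.8 and 6.95 CPM in Hox-URE and 417, 515 and 539 CPM in URE-AML, with no overlap between lines. Its log2 fold changes were -4.05 ± 0.20 (SE, with adjusted p = 1.9e-07) in Hox-URE and 1.896 ± 0.18 (SE, with adjusted p = 9.6e-06) in URE-AML relative to Hox-WT. The receptor gene *Igf2r*, which binds the mannose 6-phosphate tag, was near the limit of detection in the Hox lines, at 0 to 0.0375 CPM in Hox-WT, 0.0364 to 0.373 CPM in Hox-URE and 1.62 to 2.10 CPM in URE-AML. Its counts were 1, 1 and 0 in Hox-WT and 40, 40 and 49 in URE-AML, which was called higher (edgeR adjusted p = 1.0e-04), and its call in Hox-URE was lost without Hox-WT 3, Hox-URE 2 or Hox-URE 3 (edgeR adjusted p up to 0.071). The retromer gene *Vps26a* was lower in Hox-URE alone, at 34.8, 33.9 and 35.2 CPM against 107, 112 and 105 CPM in Hox-WT and 112, 112 and 109 CPM in URE-AML (Hox-URE relative to Hox-WT -1.64 ± 0.07 SE, with adjusted p = 8.8e-08). *Gnptab*, which makes the mannose 6-phosphate tag, was lower in URE-AML (-0.93 ± 0.14 SE, with adjusted p = 2.2e-04 against Hox-WT). Among the cathepsin inhibitors 2 of 3 tested were called higher in Hox-URE than Hox-WT, beside 21.3% of all tested genes, and 2 of 3 in URE-AML than Hox-WT, beside 23.0%. The call of *Cst7* in Hox-URE was lost without Hox-WT 1 or Hox-URE 3 and under glmTreat (adjusted p = 0.053, 0.052 and 0.10). Its call in URE-AML relative to Hox-WT was lost whenever 1 library of either line was left out (edgeR adjusted p up to 0.111) and under glmTreat (adjusted p = 0.23). *Cstb* had 19.4, 22.2 and 20.4 CPM in Hox-WT, 314, 112 and 112 CPM in Hox-URE and 339.5, 475 and 558 CPM in URE-AML (3.12 ± 0.39 SE, with adjusted p = 1.0e-04 and 4.47 ± 0.42 SE, with adjusted p = 8.3e-06 against Hox-WT), and was highest in Hox-URE library 1 within that line.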
